A study of Mus musculus with 45 samples.

Results

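The 10 genes described here are regulators and markers of epithelial-mesenchymal transition (EMT): the transcription factors Snai1, Snai2, Twist1, Zeb1 and Zeb2, the cadherins Cdh1, Cdh2 and Cdh11, the epithelial adhesion molecule Epcam and the intermediate filament gene Vim. They were taken by symbol, and they are 10 of the 18193 genes measured. The array carries 23 probe sets for them. Each gene is given by its probe set with the highest mean over the 45 arrays, and the other 13 probe sets serve as a check.

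The lines were male mouse embryonic stem cells (ESCs) of strain 129. The KD line is labelled as silenced for Strip2, a gene for a protein of the STRIPAK phosphatase and kinase complexes. The SCR line carries the scrambled control, and the WT line is wild type. Each line was sampled as undifferentiated ESCs and as embryoid bodies (EBs) grown by hanging drop for 4, 8, 12 and 16 days, with 3 arrays in each of the 15 groups. EBs are aggregates in which ESCs differentiate into many cell types, so each array is a mixture of cells. The labels do not say how the silencing or scrambled construct was delivered or how many clones a line stands for. Expression was read on an Affymetrix 3′ microarray of the mouse genome, and values are log2 signals.

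In EMT, epithelial cells lose their cell-to-cell junctions and polarity and become motile. Factors of the SNAIL, ZEB and TWIST families repress epithelial genes such as Cdh1, and the loss of E-cadherin (Cdh1) together with a gain of N-cadherin (Cdh2) is called the cadherin switch. In the mouse embryo EMT accompanies gastrulation, when epiblast cells pass through the primitive streak to form mesoderm. Mouse ESCs grow as compact colonies held together by E-cadherin.

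Values over all probe sets ran from 1.82 to 14.26, with array medians between 5.02 and 5.18, and Pearson correlations between arrays of the same group over probe sets ran from 0.9888 to 0.9961. The files used here hold no detection calls, so a level near or below these medians cannot be told from background. The single Strip2 probe set was dim and did not lie lower in the KD line than in WT at any stage: KD minus WT was 0.63 on day 12 (adjusted p = 0.0061) and between 0.02 and 0.40 at the other stages, none of them past the threshold. Against SCR it was -0.92 on day 12 (adjusted p = 0.0001) and -1.56 on day 16 (adjusted p = 8.6e-09). All Strip2 group means, from 2.57 to 4.85, lay below the array medians. These values thus do not settle whether Strip2 was silenced. The line is therefore called KD-labelled, and its directions are those of a line known by its label. In every line the first of the 8-day arrays has a cell type tag of ESCs, while its title and source name say 8-day EBs. It was kept in the 8-day group, where for example its Cdh11 signal was 11.89 in SCR and 11.60 in WT. In the KD line its signals were 11.37 for Epcam and 9.05 for Vim, against means of 10.14 and 11.12 in the ESCs of that line. No count of members called moved by more than 1.5 times without the first 8-day arrays. Whether arrays of a group stem from different cultures is not in the labels. The p-values therefore reflect the spread between these arrays, which may be technical. All adjusted p-values are limma's with Benjamini-Hochberg adjustment over all genes within a comparison, a gene is called at an adjusted p under 0.05, and n = 3 arrays for each group.

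The comparison of the undifferentiated lines asks whether they already differed before EBs were formed. In KD-labelled ESCs the epithelial members Cdh1 and Epcam were lower, and Zeb1, Snai2 and Vim were higher, than in either control. For Epcam, Zeb1, Snai2 and Vim the call against WT rests on the main probe set, as no further probe set was called there. Against SCR, 4 of the 10 genes were higher and 3 lower, where 12.3% of all genes were higher and 11.3% lower. Against WT, 5 of the 10 were called, where 18.4% of all genes were called.

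Epcam, the epithelial cell adhesion molecule, had signals of 10.05, 10.06 and 10.30 in KD-labelled ESCs, against 11.77, 11.53 and 11.59 in SCR and 11.32, 11.27 and 11.18 in WT ESCs. All 3 KD-labelled arrays lay below all 6 control arrays. The difference was -1.49 from SCR (SE 0.14, adjusted p = 1.7e-10) and -1.12 from WT (adjusted p = 2.1e-07). Cdh1, which encodes E-cadherin, had signals of 10.58, 10.61 and 10.51 in KD-labelled ESCs, against 12.01, 11.74 and 11.74 in SCR and 11.33, 11.60 and 11.12 in WT ESCs. Again no KD-labelled array reached a control array, with differences of -1.26 from SCR (SE 0.20, adjusted p = 4.9e-06) and -0.78 from WT (adjusted p = 0.0037).

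Vim, the gene of the mesenchymal filament protein vimentin, had signals of 11.18, 11.20 and 10.97 in KD-labelled ESCs, against 10.42, 10.32 and 9.72 in SCR ESCs and between 9.92 and 10.48 in WT ESCs (10.13 ± 0.30, SD). The groups did not overlap, and the KD-labelled cells were higher by 0.96 than SCR (adjusted p = 0.00032) and by 0.98 than WT (adjusted p = 0.00041). Zeb1 had 8.04, 7.86 and 8.26 in KD-labelled ESCs, against 5.58, 6.47 and 6.24 in SCR and 7.43, 7.19 and 7.88 in WT ESCs. Its distance from SCR was 1.96 (adjusted p = 8.9e-11), and that from WT 0.55 (adjusted p = 0.024), with 1 WT array inside the KD-labelled range. The controls themselves differed in Zeb1 by -1.40 for SCR minus WT (adjusted p = 1.5e-06), and the call against WT was lost without the first KD-labelled array (adjusted p = 0.055), the third (0.12), the first WT array (0.082) or the second (0.16). Snai2 was 6.50 ± 0.40 in KD-labelled ESCs, against 5.38 ± 0.43 in SCR and 5.54 ± 0.35 in WT ESCs (SD), 1.12 above SCR (adjusted p = 0.007) and 0.96 above WT (adjusted p = 0.028). This call was lost against SCR without the second KD-labelled array (adjusted p = 0.05) or the third SCR array (0.065) and against WT without the first or second KD-labelled or the first or the third WT array (adjusted p between 0.087 and 0.14).

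Cdh2, which encodes N-cadherin, stood at 6.07 ± 0.48 in KD-labelled ESCs, 7.44 ± 0.66 in SCR and 6.54 ± 0.67 in WT ESCs (SD). It was lower than in SCR by a difference of -1.37 (adjusted p = 0.00068), while KD minus WT was -0.47 with a 95% interval from -1.09 to 0.15 (adjusted p = 0.33). Snai1 averaged 4.59 in KD-labelled and 4.05 in SCR ESCs, both below the median of all values, 5.08, and so not separable from background. Its difference of 0.54 passed the threshold (adjusted p = 0.028), a call lost without the first or the third KD-labelled or the first or second SCR array (adjusted p between 0.05 and 0.15) and after cyclic loess scaling (0.068), and KD minus WT was 0.28 (adjusted p = 0.35). For Twist1, Zeb2 and Cdh11, KD minus SCR lay between -0.59 and -0.38, and none passed the threshold against either control. Marker lists of other cell types give the setting: the mean level of 14 pluripotency genes was 11.34 in the KD-labelled ESCs, 10.94 in those of SCR and 11.36 in those of WT, and that of 13 visceral endoderm genes 5.96, 5.06 and 5.31. Of the 13, 6 were higher and 0 lower than in SCR (12.3% and 11.3% of all genes), and 8 lay below the median gene in KD-labelled ESCs. The part of these cells in the differences was not tested. In such bulk samples, fewer cells of a type and less RNA per cell cannot be told apart.

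**Figure D1:**
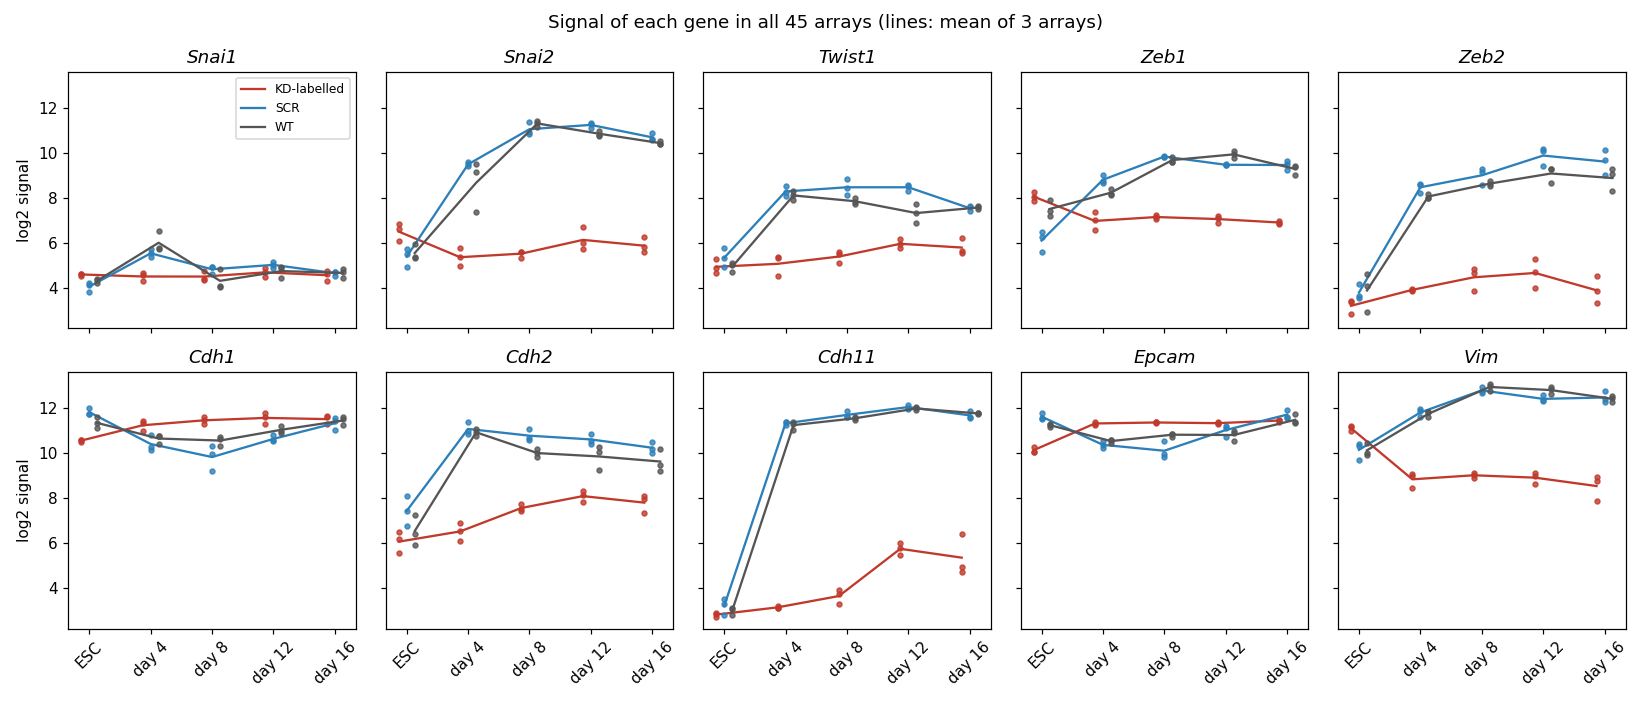
Log2 signal (vertical axis) of each of the 10 genes against stage (horizontal axis), with a point for each of the 45 arrays and a line through the mean of 3 arrays. KD-labelled samples are red, SCR blue and WT grey. In the EBs the KD-labelled arrays lie below all control arrays for Snai2, Twist1, Zeb1, Zeb2, Cdh2, Cdh11 and Vim, while Cdh1 and Epcam cross between ESCs and day 4.

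The next comparison asks how the 10 genes moved in each line once EBs had formed. In both controls 8 genes rose and Cdh1 and Epcam fell by day 4, so that 10 of 10 members were called against the ESCs of the same line in SCR (42.5% of all genes) and in WT (41.7%). In KD-labelled EBs 5 of 10 were called on day 4 (23.9% of all genes), and they moved the other way: Cdh1 and Epcam rose while Snai2, Zeb1 and Vim fell. On days 8, 12 and 16 the counts against ESCs were 8, 8 and 7 in KD-labelled EBs, where the share of all genes was 36.9%, 43.4% and 38.1%. Of these, 5, 6 and 5 rose and 3, 2 and 2 fell. By their main probe sets Cdh2 and Cdh11 rose on each of these days, as in the controls. Zeb2 did so on days 8 and 12, and Twist1 on days 12 and 16. The counts were 10, 10 and 9 in SCR EBs, where the share of all genes was 58.2%, 66.6% and 71.8%. In WT EBs they were 9, 9 and 7, where it was 56.6%, 60% and 66.2%.

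The difference between the lines at each EB day followed. Against SCR all 10 genes were called on day 4, with 2 higher and 8 lower in KD-labelled EBs, where 22.6% of all genes were higher and 19.9% lower. On day 8 the counts were 2 higher and 7 lower (28% and 24.7% of all genes), on day 12 they were 1 and 7 (31% and 24.6%), and on day 16 they were 0 and 7 (39.8% and 26.8%). The median difference of the 10 genes was -3.10 on day 4 and -2.50 on day 16, beside 0.033 and 0.17 over all genes. Against WT, 10, 9, 9 and 7 of the 10 were called on days 4, 8, 12 and 16, where 39.1%, 49.9%, 50.7% and 60.8% of all genes were called. Both sets of values share the KD-labelled arrays.

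**Figure D2:**
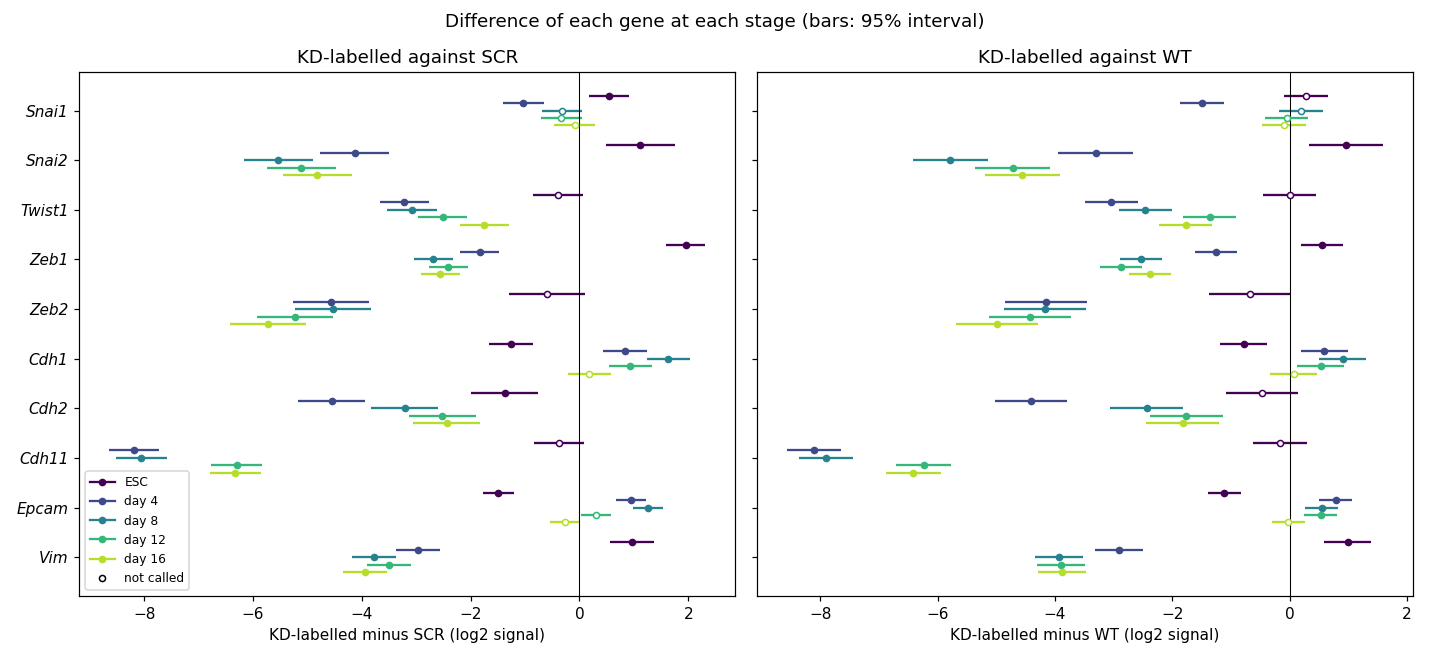
KD-labelled minus SCR (left) and KD-labelled minus WT (right) for each gene at each stage, in log2 signal, with 95% intervals from limma. Filled points passed the threshold and hollow points did not. Cdh1 and Epcam lie left of 0 in ESCs and right of it on days 4 and 8, and the 7 genes other than these and Snai1 lie left of 0 at every EB day.

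Among the transcription factors, Snai2, known as Slug and active in neural crest and mesoderm, was lower in KD-labelled EBs at every EB day. On day 4 its signals were 5.35, 5.77 and 4.95 in KD-labelled EBs, against 9.49, 9.40 and 9.57 in SCR and 9.51, 9.13 and 7.35 in WT EBs. The KD-labelled arrays were below all controls, and 1 WT array lay well under the other 2. The difference from SCR was -4.13 on day 4 (SE 0.31, adjusted p = 1.3e-13) and -5.53 on day 8 (adjusted p = 2.4e-17), and from WT it was -3.31 and -5.79. Over the 9 arrays of days 8 to 16, KD-labelled signals ran from 5.34 to 6.68 with a median of 5.70. The same range was 10.55 to 11.39 in SCR (median 10.92) and 10.37 to 11.43 in WT (median 10.81). In the KD line itself Snai2 fell from the ESC level by 1.14 on day 4 (adjusted p = 0.0062) and by 0.98 on day 8 (adjusted p = 0.013). The first of these calls was lost without the third 4-day array (adjusted p = 0.059), and the second without the first 8-day array (0.052) or the second ESC array (0.074). The second Snai2 probe set did not pass the threshold, at -0.48 on day 4 (adjusted p = 0.27 over all probe sets) and -0.39 on day 8 (0.32).

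Zeb2, a zinc finger repressor also needed for neural crest, was 3.85, 3.96 and 3.91 on day 4 in KD-labelled EBs, against 8.55, 8.22 and 8.63 in SCR and 8.01, 8.15 and 8.01 in WT EBs. The differences of -4.56 from SCR (SE 0.34, adjusted p = 1.1e-13) and -4.15 from WT (adjusted p = 1.5e-12) stood beside -5.72 and -4.99 on day 16. In the order of its 15 group means the widest gap, 3.40, separated the lowest control EB group (WT on day 4, 8.06) from the highest KD-labelled one (day 12, 4.66). In KD-labelled EBs Zeb2 rose over ESCs by 1.27 on day 8 (adjusted p = 0.0035) and 1.46 on day 12 (adjusted p = 0.00073), to means of 4.46 and 4.66, below the 5.08 that is the median of all values on the arrays. Of the 4 further Zeb2 probe sets, 1 was called on day 8 (1.01, adjusted p = 0.026 over all probe sets). Its 8-day signals were 2.87, 2.42 and 4.59, all below that median, and the third array lay well above the others. None was called on day 12, where the 4 gave 0.54, 0.49, 0.54 and -0.61, so the rise on day 12 rests on 1 probe set.

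Zeb1, the paralog of Zeb2, ran in opposite directions in the lines. Its 4-day signals were 6.99, 7.36 and 6.56 in KD-labelled EBs, against 8.76, 9.0 and 8.64 in SCR and 8.18, 8.37 and 8.13 in WT EBs, with no overlap. KD-labelled EBs were lower by differences of -1.83 from SCR (adjusted p = 5.5e-11) and -1.26 from WT (adjusted p = 2.5e-07). No further Zeb1 probe set was called against WT on day 4. They gave -0.33 (adjusted p = 0.52 over all probe sets), -0.42 (0.15) and -0.083 (0.75), so that call rests on 1 probe set. Against SCR the same probe sets gave -1.83 (1.9e-05), -0.55 (0.043) and 0.017 (0.96). On day 8 the differences of the main probe set were -2.69 and -2.53. From ESCs to day 4 Zeb1 fell by 1.08 in the KD line (adjusted p = 1.3e-05), rose by 2.70 in SCR and rose by 0.73 in WT. KD-labelled means then stayed between 6.90 and 7.14.

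Twist1, a basic helix-loop-helix factor of mesoderm and neural crest, was 5.35, 5.33 and 4.51 on day 4 in KD-labelled EBs, against 8.06, 8.27 and 8.51 in SCR and 8.13, 7.89 and 8.29 in WT EBs. The KD-labelled arrays were below all controls, with differences of -3.22 from SCR (SE 0.22, adjusted p = 1.2e-14) and -3.04 from WT (adjusted p = 6.8e-14). By day 16 these differences were -1.75 and -1.78. In KD-labelled EBs Twist1 rose over ESCs by 1.02 on day 12 (adjusted p = 0.00031), while SCR fell between days 12 and 16 by 0.93 (adjusted p = 0.0036).

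Snai1, the founding member of the SNAIL repressors, was called between the KD line and its controls at 1 of the 4 EB days, day 4. Its 4-day signals were 4.29, 4.56 and 4.65 in KD-labelled EBs, against 5.35, 5.71 and 5.53 in SCR and 5.71, 5.78 and 6.51 in WT EBs. KD-labelled EBs were lower, with differences of -1.03 from SCR (adjusted p = 1.4e-05) and -1.5 from WT (adjusted p = 1.6e-08). The WT level then fell between days 4 and 8 by 1.69 (adjusted p = 1.2e-09) and that of SCR by 0.71 (adjusted p = 0.0018). On days 8, 12 and 16, KD minus SCR was -0.32, -0.33 and -0.09, none past the threshold, and their 95% intervals lay within -0.71 and 0.28. Without the first 8-day arrays, an alternative chosen after seeing the data, the 8-day difference was -0.55 (adjusted p = 0.039). KD minus WT was 0.19, -0.057 and -0.10 on these days, none past the threshold, and without the third WT array it was 0.45 on day 8 (adjusted p = 0.041). All group means on these days lie below the median of all values. In the KD line no EB day passed the threshold against ESCs, with changes between -0.093 and 0.093. Of its 14 neighbouring pairs in the order of group means, 11 were closer than the larger SD of the pair.

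Among the cadherins, Cdh11, a cadherin of mesenchyme and bone-forming cells, had the largest difference of the 10 genes. On day 4 its signals were 3.10, 3.22 and 3.13 in KD-labelled EBs, against 11.38, 11.25 and 11.37 in SCR and 11.32, 11.41 and 11.03 in WT EBs. KD minus SCR was -8.18 (SE 0.23, adjusted p = 1.3e-25) and KD minus WT -8.10 (adjusted p = 1.8e-25). The KD-labelled level lies below the median of all values, 5.08, so the size of these differences depends on the background there. On days 8, 12 and 16 the difference from SCR was -8.05, -6.30 and -6.33. In the order of group means a gap of 5.50 separated WT on day 4 (11.25) from KD-labelled EBs on day 12 (5.75).

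Cdh11 also moved late in the KD line. Signals of 3.91, 3.30 and 3.75 on day 8 were followed by 5.81, 5.46 and 5.99 on day 12 and 4.93, 4.72 and 6.43 on day 16. The step from day 8 to day 12 was 2.10 (SE 0.23, adjusted p = 3.1e-07). The second Cdh11 probe set did not share this rise: it read 2.52 on day 8, 2.84 on day 12 and 2.67 on day 16, and day 12 minus ESCs was 0.22 (adjusted p = 0.26 over all probe sets). Both probe sets separated the KD line from the controls, with KD minus SCR of -5.56 on day 4 for the second.

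Cdh2 had 4-day signals of 6.92, 6.12 and 6.54 in KD-labelled EBs, against 10.99, 10.85 and 11.41 in SCR and 10.77, 11.09 and 10.94 in WT EBs. The KD-labelled arrays were below all controls, with differences of -4.56 from SCR (SE 0.30, adjusted p = 3.8e-15) and -4.41 from WT (adjusted p = 1.2e-14). On day 16 the differences were -2.44 from SCR and -1.83 from WT. Over ESCs of its own line Cdh2 rose in KD-labelled EBs by 1.5 on day 8 (adjusted p = 0.00014), 2.03 on day 12 (adjusted p = 1.2e-06) and 1.74 on day 16 (adjusted p = 1.5e-05). The step from day 4 to day 8 was 1.04 in the KD line (adjusted p = 0.018). In WT EBs Cdh2 fell over the same step by 0.92 (adjusted p = 0.013).

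Cdh1 was lower in KD-labelled ESCs than in the controls and higher in KD-labelled EBs on days 4 to 12. On day 4 its signals were 11.42, 10.97 and 11.35 in KD-labelled EBs, against 10.14, 10.30 and 10.80 in SCR and 10.79, 10.78 and 10.40 in WT EBs. All KD-labelled arrays were above all controls. The difference was 0.83 from SCR (SE 0.20, adjusted p = 0.0006) and 0.59 from WT (adjusted p = 0.015), and the call against WT was lost without the first (adjusted p = 0.076) or the third (0.058) KD-labelled or the third WT array (0.1). On day 8 the signals were 11.48, 11.32 and 11.60 in KD-labelled EBs, against 10.31, 9.20 and 9.99 in SCR and 10.73, 10.33 and 10.64 in WT EBs. KD minus SCR was then 1.63 (adjusted p = 5.9e-09) and KD minus WT 0.90 (adjusted p = 0.00019). On day 12 the signals were 11.78, 11.32 and 11.62 in KD-labelled EBs, against 10.57, 10.82 and 10.53 in SCR and 11.21, 11.01 and 10.92 in WT EBs. KD minus SCR was 0.93 (adjusted p = 0.00011). The call against WT (0.53, adjusted p = 0.024) was lost after cyclic loess scaling (0.074) and without the first or the third KD-labelled or the second or the third WT array (0.06 to 0.12).

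On day 16 Cdh1 did not pass the threshold. KD-labelled EBs read 11.60, 11.30 and 11.66, against 11.57, 11.02 and 11.42 in SCR and 11.25, 11.51 and 11.61 in WT EBs, and the groups overlapped. KD minus SCR was 0.18 (95% interval -0.22 to 0.58, adjusted p = 0.41) and KD minus WT 0.063 (-0.34 to 0.46, adjusted p = 0.79). In SCR Cdh1 had risen by 0.81 from day 8 to day 12 (adjusted p = 0.0042) and by 0.70 from day 12 to day 16 (adjusted p = 0.015). The KD-labelled level stayed above its own ESCs from day 4 on, by 0.68 on day 4 (adjusted p = 0.0093) and 0.95 on day 16 (adjusted p = 0.00016). The 4-day call was lost without the first 4-day array (adjusted p = 0.054).

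Epcam was likewise lower in KD-labelled ESCs and higher in KD-labelled EBs than in both controls on days 4 and 8. Its 4-day signals were 11.26, 11.31 and 11.41 in KD-labelled EBs, against 10.23, 10.53 and 10.37 in SCR and 10.45, 10.57 and 10.61 in WT EBs. The KD-labelled arrays were above all control arrays, by 0.95 for SCR (SE 0.14, adjusted p = 4.1e-07) and 0.78 for WT (adjusted p = 1.4e-05). The difference was 1.26 from SCR on day 8 and 0.54 from WT. On day 12 KD minus WT was called (0.53, adjusted p = 0.0015). KD minus SCR was 0.31 on day 12 (adjusted p = 0.059), and it was called with arrays centred (adjusted p = 0.013), among genes above the median level (0.045), with trended eBayes (0.047) and without the third SCR array (0.027). It was -0.26 on day 16 (95% interval -0.54 to 0.018, adjusted p = 0.092). After cyclic loess scaling of the arrays the 16-day difference was -0.39 (adjusted p = 0.014), while the second Epcam probe set was called higher, at 0.36 (adjusted p = 0.024 over all probe sets) and on day 12 at 0.49 (0.0032). The probe sets thus differ in sign on day 16, and Epcam has no settled direction there. KD-labelled Epcam rose over ESCs by 1.19 on day 4 (adjusted p = 3.3e-08), and its group means stayed between 11.33 and 11.46 at all EB days. In SCR it fell by 1.52 from ESCs to day 8 and was back within 0.09 of the ESC level on day 16 (adjusted p = 0.56).

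Epcam and Snai1 are 2 of the 5 members with a promoter window in the RefSeq table of build GRCm38.p6, and the others are Twist1, Vim and Zeb2. Windows hold 250 bases before and 50 after a gene's start. They were searched on both strands for the E-box CACCTG or its reverse complement CAGGTG, the core bound by SNAIL and ZEB factors. Epcam and Snai1 are the members whose window holds the motif, and their sequences are shown with it in capitals. The Epcam window is chr17:87635729-87636028 on the plus strand, with E-boxes beginning at -187 and -19 from the start. That of Snai1 is chr2:167537945-167538244 on the plus strand, with an E-box at -126.
Epcam: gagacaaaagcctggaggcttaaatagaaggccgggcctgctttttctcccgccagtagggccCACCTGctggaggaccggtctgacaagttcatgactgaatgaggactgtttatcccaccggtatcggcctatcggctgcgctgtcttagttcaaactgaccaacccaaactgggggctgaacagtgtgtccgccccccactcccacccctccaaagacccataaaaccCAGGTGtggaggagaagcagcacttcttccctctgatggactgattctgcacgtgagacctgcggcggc
Snai1: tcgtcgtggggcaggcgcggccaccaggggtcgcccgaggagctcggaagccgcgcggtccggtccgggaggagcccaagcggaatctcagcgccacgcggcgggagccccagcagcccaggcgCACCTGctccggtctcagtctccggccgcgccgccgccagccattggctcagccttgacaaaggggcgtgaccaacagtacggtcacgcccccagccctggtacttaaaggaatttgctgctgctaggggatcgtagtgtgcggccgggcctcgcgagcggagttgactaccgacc
Of 32851 windows in the table, 20.2% hold at least 1 such motif and 2.88% at least 2. A match describes these letters only.

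By its main probe set Vim was higher in KD-labelled ESCs than in either control, and it was lower in KD-labelled EBs at every EB day. On day 4 its signals were 9.07, 9.01 and 8.45 in KD-labelled EBs, against 11.98, 11.87 and 11.60 in SCR and 11.84, 11.83 and 11.60 in WT EBs. The groups did not overlap, with differences of -2.97 from SCR (SE 0.20, adjusted p = 5.1e-15) and -2.91 from WT (adjusted p = 1.1e-14). Vim fell from KD-labelled ESCs to day 4 by 2.27 (adjusted p = 6.9e-11), while it rose by 1.66 in SCR (adjusted p = 9.4e-09) and by 1.62 in WT (adjusted p = 1.5e-08). By day 16 its signals were 8.79, 7.88 and 8.96 in KD-labelled EBs, against 12.27, 12.76 and 12.42 in SCR and 12.45, 12.28 and 12.53 in WT EBs. These differences were -3.94 and -3.88.

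**Figure D3:**
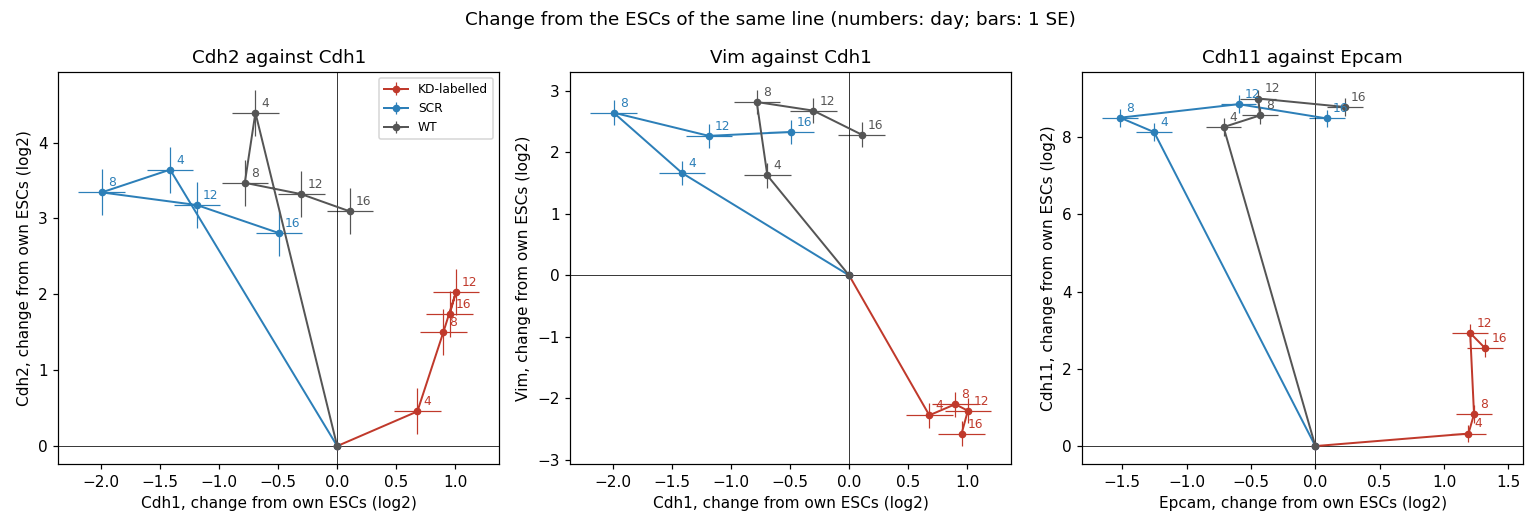
Change of each line from its own ESCs in log2 signal, as Cdh2 against Cdh1, Vim against Cdh1 and Cdh11 against Epcam, with the day beside each point and bars of 1 SE. SCR and WT leave the origin towards lower Cdh1 and Epcam and higher Cdh2, Vim and Cdh11, and KD-labelled EBs leave it towards higher Cdh1 and Epcam. Cdh2 and Cdh11 also move up in KD-labelled EBs, by less than in the controls, while Vim moves down there.

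Whether the course itself differed was tested with the change from ESCs in each line. An F test over the stages called all 10 genes for KD minus SCR, where 58.5% of all genes were called, and all 10 for KD minus WT, where it was 57.6%. The contrast was largest for Cdh11 on day 4, -7.81 against SCR (adjusted p = 8e-20) and -7.94 against WT (adjusted p = 4.6e-20). For Vim it was -3.94 and -3.90 on day 4. For Cdh1 it was positive, at 2.10 against SCR and 1.37 against WT on day 4. On day 16 it was 1.45 (adjusted p = 4.8e-05) and 0.85 (adjusted p = 0.012). Epcam gave 1.23 and 1.09 on day 16. Each contrast includes the difference already present in ESCs. For Cdh1, KD minus SCR was -1.26 in ESCs and 0.18 on day 16, and for Epcam it was -1.49 and -0.26. On day 16 neither gene passed the threshold against SCR or WT. These 16-day contrasts therefore do not show a difference between the EBs of that day.

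The steps between neighbouring days show when each gene moved. From day 4 to day 8, Cdh2 was the member called in the KD line (12.9% of all genes). In SCR 5 of 10 were called over this step (41.1% of all genes) and in WT 5 of 10 (43.9%). Snai2, Zeb1 and Vim rose in both controls over it, Snai2 by 1.56 in SCR and 2.64 in WT, and Snai1 fell in both. Twist1 and Cdh11 did not pass the threshold over this step in either control, and both had risen by day 4. Later steps held few calls. From day 8 to day 12 the members called were Cdh11 in the KD line (1% of all genes), Cdh1 and Epcam in SCR (10.9%) and none in WT (12.5%). From day 12 to day 16 they were none in the KD line (0.495%), Cdh1, Epcam and Twist1 in SCR (11.4%) and Epcam and Zeb1 in WT (9.52%). At an unadjusted p under 0.05 the members of those steps with none called numbered 3 in WT and 1 in the KD line.

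The 2 control lines served as a check on each other. SCR minus WT called 1 of 10 in ESCs, where 10.2% of all genes were called, and this was Zeb1. On day 4 it called 0 of 10 (1.93% of all genes), with 3 at an unadjusted p under 0.05. On day 8 it called Cdh1 (-0.73, adjusted p = 0.016) and Epcam (-0.71, adjusted p = 0.00069), where 6.99% of all genes were called. Twist1 was called on day 12 (1.15, adjusted p = 0.00036), where the share was 14.7%. On day 16 the count was 0 (8.11%), with 1 at an unadjusted p under 0.05. In ESCs and on days 8 and 12 same-numbered SCR and WT arrays deviated together, and with the replicate number as a block within these 2 lines the counts were 1, 4 and 4, with Twist1 and Cdh2 added on day 8 and Zeb1, Zeb2 and Cdh2 on day 12. The Cdh1 call on day 8 was lost without the second SCR array (adjusted p = 0.27), the first WT array (0.08) or the third (0.066).

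The further probe sets were read against all 45037 probe sets. The main probe set of a gene with further ones was called in 116 pairs of a further probe set and a comparison of the KD line with SCR or WT. In these 116 pairs 95 further probe sets were called in the same direction, 21 were not called and 0 were called in the opposite direction, where 37.8% of all tests on probe sets were calls. Most of the 21 belonged to Zeb1 probe sets, and 1 of these probe sets was dim, at a mean of 2.75 over all arrays. In ESCs the 2 further Vim probe sets gave KD minus SCR of 0.71 (adjusted p = 0.057) and 0.74 (adjusted p = 0.053), short of the threshold. Their KD minus WT was 0.58 (adjusted p = 0.16) and 0.67 (0.1). The further Zeb1 probe sets gave KD minus WT of 0.62 (adjusted p = 0.25), -0.05 (0.93) and 0.22 (0.39) in ESCs. Against SCR 1 of them was called, at 1.61 (adjusted p = 0.00033). The second Snai2 probe set gave KD minus WT of 0.34 (adjusted p = 0.51) and that of Epcam -0.31 (adjusted p = 0.14).

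Likeness between genes was described by Pearson's r over the 15 group means, which share lines, stages and arrays. Cdh1 and Epcam stood at 0.90 with each other, and the genes most like Cdh1 were Cgn (0.95), which encodes the tight junction protein cingulin, Cnksr1 (0.91) and Tmem30b (0.90). For Epcam they were Cnksr1 (0.96), Tmem30b (0.94) and Arfgef3 (0.92). Twist1 was most like another member, Cdh2 (0.98), followed by the bone morphogenetic protein Bmp5 (0.98) and Tmem198b (0.98). Numb (0.99), which encodes an inhibitor of Notch signalling, and Abtb2 (0.99) led for Cdh2.

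The genes most like Cdh11 were Zfp703 (0.99), Vasn (0.99) and Gas1 (0.99), and those most like Snai2 were Pknox2 (0.99), Fli1 (0.99) and Kif26b (0.99). Pknox2 (0.96) came second for Zeb1 too, after Lix1l (0.99) and before Bloc1s5 (0.96). Zeb2 was most like Mllt3 (0.99), Tspan3 (0.99) and Epm2aip1 (0.99). The genes closest to Vim, Cenpb (0.99), Ap1m1 (0.98) and Tfg (0.98), spanned 1.05, 1.16 and 0.72 between group means. Snai1 was least like the other mesenchymal members, with r from 0.32 (Vim) to 0.64 (Cdh2), and its nearest genes were Prex1 (0.95), Six2 (0.93) and Kcnmb4os2 (0.91).

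Lists of related genes give the setting of the 10 members. Counts against SCR are to be read beside the shares of all genes higher and lower in KD-labelled EBs, 22.6% and 19.9% on day 4, 28% and 24.7% on day 8, 31% and 24.6% on day 12 and 39.8% and 26.8% on day 16. Of 36 measured genes of epithelial junctions and identity, 0 were higher and 25 lower in the KD-labelled than in the SCR ESCs (12.3% and 11.3% of all genes). Their median difference was -0.998 beside 0.027 over all genes. Against WT 19 were lower in KD-labelled ESCs, where 9.78% of all genes were lower, and SCR ESCs themselves exceeded WT in 17, where 4.43% of all genes were higher. In EBs the counts were 20 higher and 5 lower than SCR on day 4, 20 and 3 on day 8 and 20 and 6 on day 12. On day 16 it was 9 and 10, with a median of -0.0067 beside 0.17 over all genes. Against WT the counts were 16 higher and 9 lower on day 8, where 26% and 23.9% of all genes were, and 7 and 12 on day 16 (34.6% and 26.1%). SCR EBs themselves were lower than WT in 10 of these genes on day 8, where 4.16% of all genes were.

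Named genes of this list show both directions. Grhl2, a transcription factor that sustains Cdh1 and other epithelial genes, was lower in the KD-labelled than in the SCR ESCs, with a difference of -0.74 (adjusted p = 0.003) and then higher by 3.44 on day 4 (adjusted p = 2e-17) and 2.63 on day 16. Cldn4, a tight junction claudin, was higher by 2.55 on day 4 (adjusted p = 3.5e-11), and on day 16 the difference was 0.29 (adjusted p = 0.29). Dsp, the desmosomal protein desmoplakin, was lower at every stage, with differences of -2.53 in ESCs and -2.80 on day 4 (adjusted p = 4.6e-14), at means of 8.19 in KD-labelled and 10.99 in SCR EBs.

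Among 9 catenins and cadherin partners, 3 were higher and 4 lower than SCR on day 4, and 2 and 4 on day 16, where 39.8% of all genes were higher. Vinculin (Vcl), which ties junctions to actin, was lower, with differences of -0.997 on day 4 (adjusted p = 2.8e-10) and -1.67 on day 16. The gene of the junction protein afadin (Afdn) was higher by 0.80 on day 12 (adjusted p = 3.2e-09). Of 17 other cadherins 3 were higher and 4 lower on day 4, and 2 and 6 on day 16, with the counts of day 4 near the shares of all genes (22.6% and 19.9%). They include Cdh9, higher by 1.78 on day 4 (adjusted p = 1.1e-09), and Cdh13, lower with a difference of -1.21 (adjusted p = 5.3e-06). Cdh5, the cadherin of endothelium, averaged 3.55 in KD-labelled and 3.65 in SCR EBs on day 4, and 3.91 and 8.57 on day 16 (adjusted p = 1.3e-17).

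Of 28 mesenchymal effector genes, 3 were higher and 14 lower than SCR on day 4, 2 and 24 on day 8, 2 and 24 on day 12 and 1 and 26 on day 16. The median difference was -0.39 on day 4 and -2.78 on day 8. For the matrix genes Lum, Col3a1 and Postn, KD minus SCR on day 4 was 0.30, 0.02 and -2.44, and on day 8 it was -9.37, -10.13 and -8.50, with all 3 KD-labelled levels below the median of all values. The mean level of 12 fibroblast and smooth muscle markers was 5.38 in the KD-labelled EBs, 6.13 in those of SCR and 5.95 in those of WT on day 4, and 5.54, 9.95 and 10.16 on day 8. All of these 12 markers but Cnn1 and Myh11 are also in the mesenchymal effector list, so this mean largely repeats values of that list. The part of these cell types in the levels of the members was not tested.

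**Figure D4:**
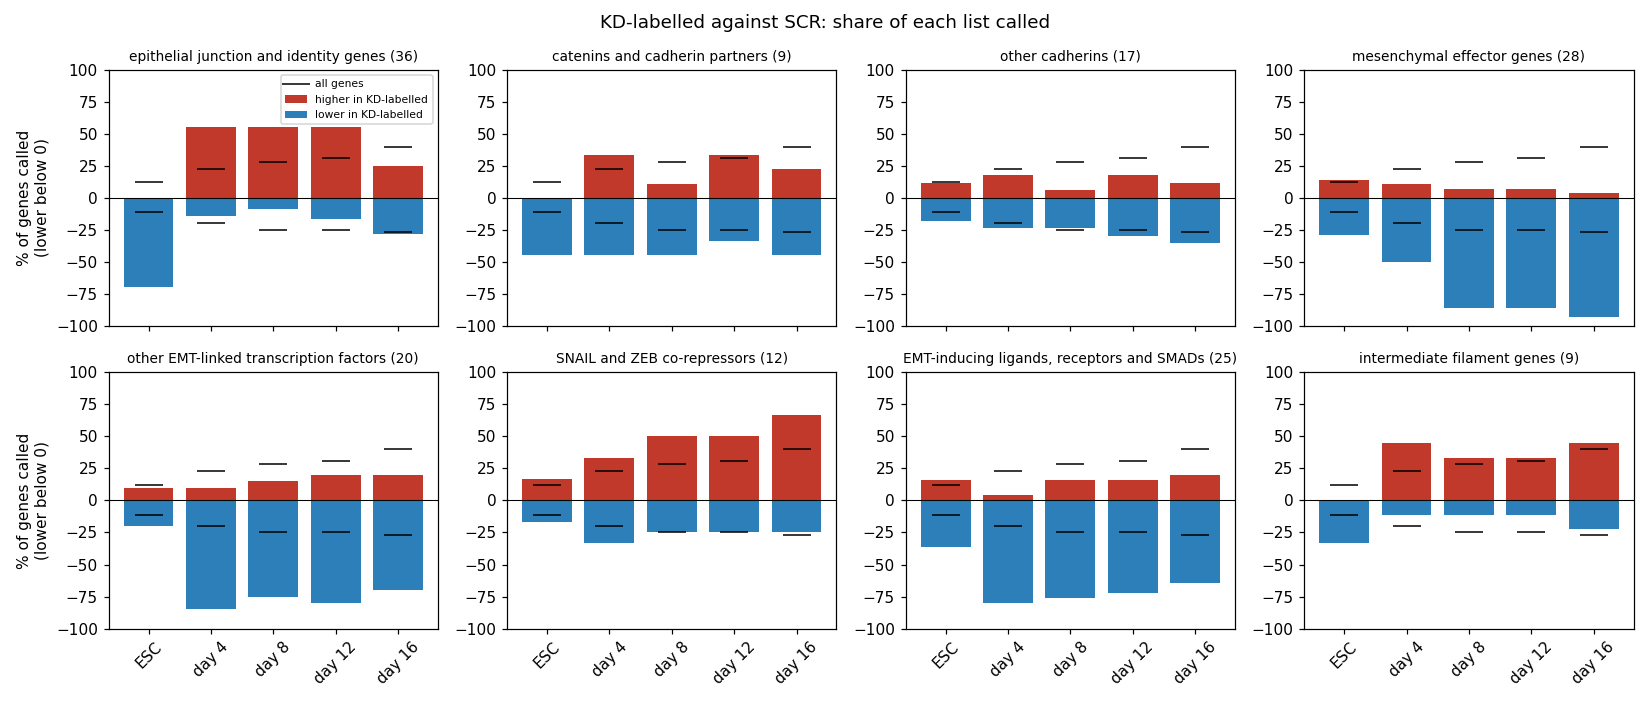
Share of each list called in KD-labelled against SCR samples (percent of measured genes, vertical axis) by stage, with genes higher in the KD-labelled line above 0 and lower ones below. Black ticks mark the share over all genes. The epithelial list points down in ESCs and up on days 4 to 12, and the mesenchymal, transcription factor and ligand lists point down in EBs.

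Of 20 other transcription factors linked to EMT, 2 were higher and 17 lower than SCR on day 4, with a median of -1.75, and 4 and 14 on day 16. Foxc2 was lower, with differences of -3.01 on day 4 and -4.82 on day 8 (adjusted p = 2.3e-14), Twist2, the paralog of Twist1, gave -2.46 and -4.19 (adjusted p = 3.6e-20), and Foxc1 -2.62 and -3.85. Among 12 co-repressors through which SNAIL and ZEB factors act, 4 were higher and 4 lower on day 4, and 8 and 3 on day 16 (39.8% and 26.8% of all genes). The Polycomb genes Suz12 and Eed were higher by 1.68 and 1.78 on day 8, and Ctbp1, the partner of ZEB proteins, was lower, at -1.68 (adjusted p = 2.5e-16). Suz12 was already higher in KD-labelled than in SCR ESCs, by 0.79 (adjusted p = 1.8e-05).

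A list of 25 genes held ligands, receptors and SMAD proteins of signalling linked to EMT, inhibitors such as Smad6 among them. Of these genes 1 was higher and 20 lower on day 4, and 5 and 16 on day 16. The counts are therefore not counts of inducers alone. Tgfb2, a transforming growth factor beta ligand, was 4.08 in KD-labelled and 8.97 in SCR EBs on day 4, a difference of -4.89 (adjusted p = 4.6e-18). Nodal, the ligand of the primitive streak, went the other way and was higher by 2.43 on day 4 and 4.60 on day 16. Smad6, an inhibitor of bone morphogenetic protein signalling, was higher in KD-labelled ESCs by 1.40 (adjusted p = 1.1e-06) and lower on day 4, with a difference of -5.30. Among 9 other intermediate filament genes 4 were higher and 1 lower on day 4 (22.6% and 19.9% of all genes), 3 and 1 on day 8, 3 and 1 on day 12 and 4 and 2 on day 16, and the median difference was 0.35 on day 4, -0.27 on day 8 and 0.28 on day 12. Prph (peripherin) was higher by 3.03 on day 8 (adjusted p = 8.4e-13), Ina by 2.03 (adjusted p = 1.8e-06), and Nes (nestin) was lower, at -0.95 (adjusted p = 1.7e-05).

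Marker lists of other cell types were set beside these values. The pluripotency list averaged 10.89 in KD-labelled EBs on day 4, against 6.43 in SCR and 6.98 in WT EBs, and on day 16 10.99, against 5.64 and 6.62. All 14 of its genes were higher than in SCR from day 8 on. Its lowest and highest arrays in KD-labelled EBs on day 16 were 10.97 and 11.01, beyond the SCR range of 5.12 to 6.04. Markers of visceral endoderm, an epithelium that expresses Cdh1 and Epcam, averaged 6.96 in the KD-labelled EBs, 6.45 in those of SCR and 6.6 in those of WT on day 4, when Cdh1 and Epcam were higher in the KD line. The same means were 8.28, 7.87 and 8.54 on day 8, and 9.04, 8.27 and 8.42 on day 12. The KD-labelled arrays were above all controls on days 4 and 12. On day 16 the means were 8.68, 8.87 and 8.95. The 13 genes of this list were split. On day 4, 6 were higher and 4 lower than SCR (22.6% and 19.9% of all genes). The counts were 5 and 6 on day 8 (28% and 24.7%), 6 and 3 on day 12 (31% and 24.6%) and 6 and 6 on day 16 (39.8% and 26.8%). Against WT on day 8, 4 were higher and 7 lower (26% and 23.9%). Endothelial markers on day 4 averaged 5.38 in the KD-labelled EBs, 5.40 in those of SCR and 5.45 in those of WT, and neural markers 5.68, 5.75 and 5.73. Cardiac muscle markers, which belong to tissue that expresses Cdh2, stood at 5.11 in the KD-labelled EBs, 9.74 in those of SCR and 6.56 in those of WT on day 8. The part of these cell types in the members' levels was not tested.

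**Figure D5:**
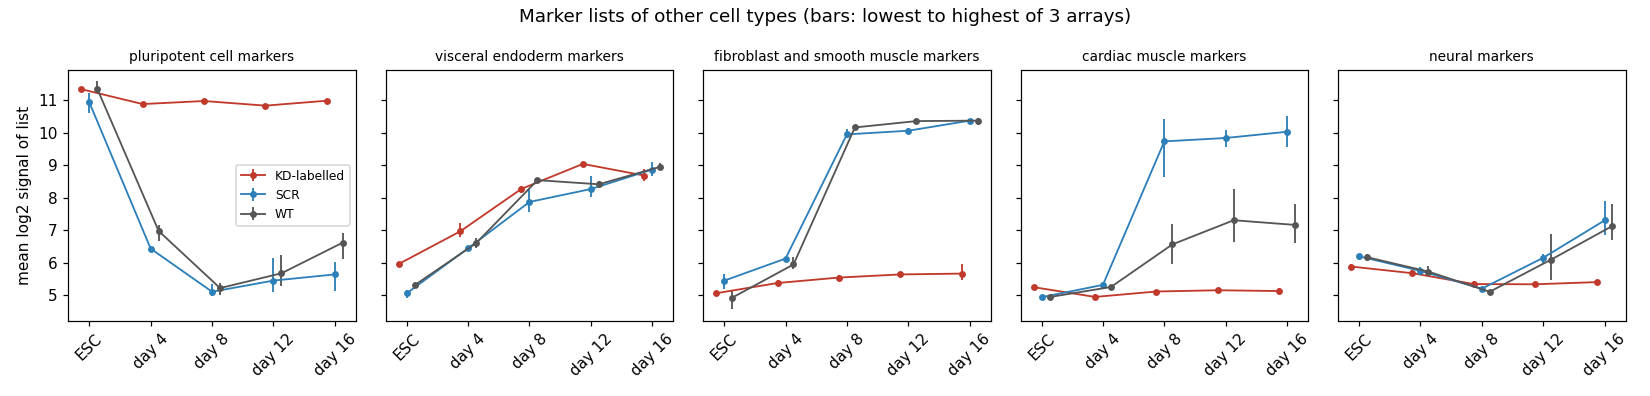
Mean log2 signal of 5 marker lists (vertical axis) by stage, with bars from the lowest to the highest of 3 arrays. KD-labelled samples are red, SCR blue and WT grey. The pluripotency list stays between 10.84 and 11.34 in the KD-labelled line, and the fibroblast and smooth muscle list stays between 5.06 and 5.67 there.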

How the data were processed

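Total RNA of 45 samples was hybridised to Affymetrix 3′ arrays of the mouse genome. The deposited values are log2 signals, and the submitters' processing notes name Affymetrix Expression Console, Partek 6.6 and RMA without their roles. They were used as deposited. Of 45037 probe sets, 34945 had 1 gene symbol, 932 several and 9160 none, and 204 of those with 1 symbol were not in the gene table. The probe set with the highest mean over the arrays stood for each of 18193 genes, which can favour one transcript end or a cross-hybridising probe set.

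limma 3.58.1 (R 4.3.3) fitted 15 group means to all 45 arrays (30 residual degrees of freedom), with eBayes and Benjamini-Hochberg adjustment. The fit was tested on simulated data. Named genes were all 10 members, up to 3 genes of each list with the largest mean difference from SCR over the EB days among those called at 2 or more EB days in the same direction against both controls, and the 3 genes most alike each member. The members and lists were chosen with earlier results of these data known.

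Replicate numbers are those of the source names. The deviations of same-numbered arrays correlated at -0.30 to 0.48, over 0.1 in 22 of 45 pairs. In 3 of 15 comparisons (SCR and WT in ESCs and at days 8 and 12) every pair was over 0.1 (0.10 to 0.48), so there the numbers were taken to pair the arrays. That pairing comes from the data and not from a label. Alternatives changed the scaling, filter, probe set, samples fitted, replicate block, eBayes setting and fold threshold, or left out 1 array. The probe set alternative took the widest range of group means. It picked the main probe set again for every member, so it could not change a member's difference. For arrays, their number limits the precision.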

Additional observations from a re-analysis of the deposited data

Results flagged for a closer look

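For all 10 genes the difference between KD-labelled and SCR samples was itself different between stages, by limma's moderated F test of the change from ESCs with Benjamini-Hochberg adjustment over all genes (58.5% of all genes were called). The span from the highest to the lowest of the 5 differences was 7.81 for Cdh11 (adjusted p = 7.8e-21), 6.65 for Snai2 (4.2e-15), 5.13 for Zeb2 (1.1e-10) and 4.90 for Vim (4.8e-17). It was 4.65 for Zeb1 (4.8e-18), 3.19 for Cdh2 (1.6e-06), 2.90 for Cdh1 (5.3e-10) and 2.82 for Twist1 (2.9e-09). Epcam spanned 2.75 (6.6e-14) and Snai1 1.57 (9.9e-05). For Cdh1 and Epcam the lowest difference was in ESCs and the highest at day 8. For the other 8 genes the highest difference was in ESCs.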

How the results depend on the processing

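No difference changed sign past the threshold under any alternative run, and none of these runs changed the probe set of a member. For KD-labelled against SCR, leaving out 1 array gave 6 members called in ESCs (7 with all arrays) and 8 to 9 at day 12, and no count of that comparison moved by over 1.5 times under any alternative. For KD minus WT in ESCs (5 called), 1 had at least a 2-fold difference, and leaving out 1 array gave 3 to 5, with 3 without the first KD-labelled or the first WT array. For KD at day 8 minus ESCs (8 called), 4 had at least a 2-fold difference. For SCR minus WT in ESCs (1 called) it was 2 among genes above the median level, 0 with only the 2 groups fitted and 1 to 2 without 1 array (2 without the third SCR or the second WT array). At day 4 (0 called) it was 1 with arrays centred on their medians and 0 to 1 without 1 array (1 without the first WT array). At day 8 (2 called) it was 1 with only the 2 groups fitted, which was Cdh2 (adjusted p = 0.033), while Cdh1 (0.19) and Epcam (0.075) lost their calls. It was 0 with at least a 2-fold difference and 1 to 3 without 1 array (1 without the second SCR or the first WT array). At day 12 (1 called) it was 2 with only the 2 groups fitted and 1 to 3 without 1 array (3 without the second WT array). With the replicate block within the 2 groups, chosen after seeing the data, the counts were 4 at day 8 and 4 at day 12. With the replicate block over all arrays, 27 of 27 counts and 270 of 270 gene values kept their side of the threshold, and in the comparisons where samples share only a number it changed no call. Cdh1 in KD-labelled against WT EBs at day 12 was 0.41 after cyclic loess (adjusted p = 0.074), and the cause was not tested. Of 1620 gene values without 1 array, 1573 kept their side of the threshold, 36 lost a call and 11 gained one. Scaling shifted the median of all genes, for KD minus SCR at day 16 by 0.19 with arrays centred and by -0.15 after loess, and for SCR at day 16 minus ESCs by -0.35 and by 0.16. Signals near or below 5.08 cannot be told from background, which limits the size of every difference with a group at such a level, those of Snai1, Snai2, Twist1, Zeb2, Cdh11, Lum, Col3a1, Postn, Tgfb2 and Foxc2 among them.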
